A study of Homo sapiens with 9 samples.

Results

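Of the 19861 p300 peaks deposited for this series, 2682 were private to one untreated library: they lay in the peak list of 1 of the 2 untreated libraries and overlapped no peak of any of the other 4 lists by 1 bp or more. Untreated library 1 held 1320 such peaks among 2313 (57.1%) and untreated library 2 held 1362 among 2039 (66.8%). The peaks were chosen by this lack of overlap, so their numbers and their distances to other lists are descriptions and carry no test.

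All libraries came from PC3, a cell line established from a human prostate carcinoma, and all cells received 20 Gy of radiation, so no unirradiated group is available for comparison. The untreated cells received no drug before irradiation. The treated cells received 30 µM MnTE-2-PyP, a manganese-containing porphyrin with superoxide dismutase-like activity, during the 24 h before it. Both groups were fixed in 1% formaldehyde 1 h after irradiation, sheared to about 100 to 300 bp and precipitated with an antibody against p300. There were 2 untreated and 3 treated libraries, called biological replicates by the submitters. The treated lists held 4922, 10059 and 528 peaks, of which 3558 (72.3%), 8638 (85.9%) and 81 (15.3%) were private to their own list. Treated library 3 thus stood apart as the shortest list, and a result that rests on it is given with and without it. The lists hold no read counts, so the depth is unknown.

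p300 is a histone acetyltransferase and coactivator. It is recruited by transcription factors to enhancers and promoters, where it acetylates histones and other proteins and links the factors to the transcription machinery. In chromatin immunoprecipitation, DNA crosslinked to p300 is enriched by the antibody, and a peak is a stretch where the sequenced fragments pile up beyond the threshold of the peak caller.

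The peaks that were not private show which lists the untreated libraries met. In untreated library 1, 391 peaks overlapped 1 other list, 255 overlapped 2, 191 overlapped 3 and 156 overlapped all 4. The corresponding numbers in untreated library 2 were 260, 124, 143 and 150. Untreated library 1 met treated library 2 with 740 peaks (32.0% of its list), treated library 1 with 711 (30.7%), untreated library 2 with 367 (15.9%) and treated library 3 with 280 (12.1%). Untreated library 2 met the same treated libraries, in that order, with 535 (26.2%), 472 (23.1%) and 188 (9.22%) of its peaks, and untreated library 1 with 342 (16.8%). The private sets therefore depend mainly on the 2 longest lists: without treated library 2 they grew to 1496 and 1509 peaks, and without treated library 1 to 1491 and 1440. Without treated library 3 they held 1327 and 1366.

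The border of the private sets was narrow. The private peaks closest to another list lay 9, 16 and 23 bp from its nearest peak in untreated library 1 and 2, 8 and 11 bp in untreated library 2. On the other side of the border, the smallest overlaps were 10, 15 and 16 bp in untreated library 1 and 9, 12 and 14 bp in untreated library 2. The closest private peak of untreated library 1 was chr10:37412161-37412380 in hg19, the build of the lists, and that of untreated library 2 was chr15:21995311-21995642. Peaks of this kind were few. Only 91 private peaks of untreated library 1 (6.89%) and 82 of untreated library 2 (6.02%) had a peak of another list within 500 bp.

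Most private peaks nevertheless lay in the neighbourhood of peaks from other libraries. The median gap to the nearest peak of the other lists was 14.4 kb in untreated library 1 and 19.4 kb in untreated library 2. The middle 50% of the gaps ran from 3.08 to 68.0 kb and from 3.86 to 69.1 kb. A peak of another list lay within 5 kb of 433 private peaks (32.8%) in the first library and 383 (28.1%) in the second. It lay within 50 kb of 937 (71.0%) and 945 (69.4%). At the far end, 53 private peaks (4.02%) of untreated library 1 and 39 (2.86%) of untreated library 2 had no peak of another list within 500 kb. The most remote were chr8:11092355-11092558 in untreated library 1, at 1.95 Mb, and chrX:87076290-87076950 in untreated library 2, at 4.28 Mb. The next most remote were chr4:94396427-94396625 (1.88 Mb) and chr6:79479240-79479441 (1.76 Mb) in the first library and chr6:116281097-116281654 (2.69 Mb) and chr4:29635409-29635749 (2.58 Mb) in the second.

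**Figure D1:**
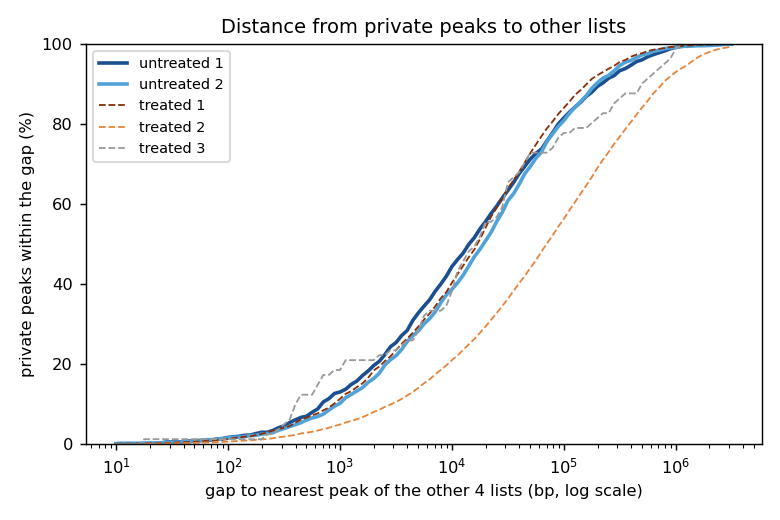
Cumulative share of private peaks (percent, vertical axis) by the gap to the nearest peak of the other 4 lists (bp, log scale), 1 line per library, solid for untreated and dashed for treated. The untreated libraries ran close together, with medians of 14.4 and 19.4 kb, while treated library 2, which faced 9802 peaks of other lists, lay to the right with a median of 70.2 kb.

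The libraries faced different numbers of peaks in the other lists. These were 17548 for untreated library 1 and 17822 for untreated library 2. Treated library 1 faced 14939 other peaks and had a median gap of 16.9 kb, treated library 3 faced 19333 and had 16.3 kb, and treated library 2 faced 9802 and had 70.2 kb. The part of these numbers in the gaps was not tested. Treated library 2 supplied the nearest neighbour of 728 private peaks of untreated library 1 (55.2%), close to its part of the other peaks (57.3%), and of 901 of untreated library 2 (66.2%, against 56.4%). Treated library 1 supplied 445 neighbours in untreated library 1 (33.7%, against 28.0% of the other peaks) and 329 in untreated library 2 (24.2%, against 27.6%). A peak of untreated library 2, private or not, lay within 5 kb of 106 private peaks of untreated library 1 (8.03%), and a private one within 5 kb of 54 (4.09%). The closest gap between private peaks of the untreated libraries was 26 bp.

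Private peaks were weaker than the other peaks of their own list by the authors' deposited score, whose scale is not named. The text therefore compares it by rank within a list, and 1 alternative setting filters all lists at a common score. The median private peak stood at percentile 41.4 in untreated library 1 and 42.6 in untreated library 2, where the remaining peaks stood at 69.1 and 67.4. The lower scores did not set them apart one by one, because 32 private peaks of untreated library 1 and 33 of untreated library 2 were among the top-scoring 10% of their list. The private share stayed between 64.1% and 71.9% over the lowest 7 of 10 equal score bins of untreated library 1, and was 47.6%, 27.3% and 13.9% in the 3 highest. For untreated library 2 it stayed between 66.2% and 80.4% over the lowest 8 bins and was 56.9% and 16.3% in the 2 highest.

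The direction was the same in all 5 lists, private peaks having the lower median in each. The gap in median percentile between private and other peaks was -27.8 and -24.8 points in the untreated libraries and -33.1, -35.4 and -26.2 points in the treated ones. The untreated mean was -26.3 ± 2.08 (SD, n = 2) and the treated mean -31.6 ± 4.77 (SD, n = 3). An exact two-sided permutation test took the 10 ways to split 5 lists into 2 and 3 (p = 0.4). Its smallest possible p is 0.2, so it could call no difference between the groups. The difference, untreated minus treated here and throughout, was 5.29 points. It was 1.504 points without treated library 2 and 8.94 points without treated library 3. Within the pairs of libraries whose peak names share a run identifier, the untreated library differed from the treated one by 5.33 points (untreated 1 and treated 1) and by 1.41 points (untreated 2 and treated 3).

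**Figure D2:**
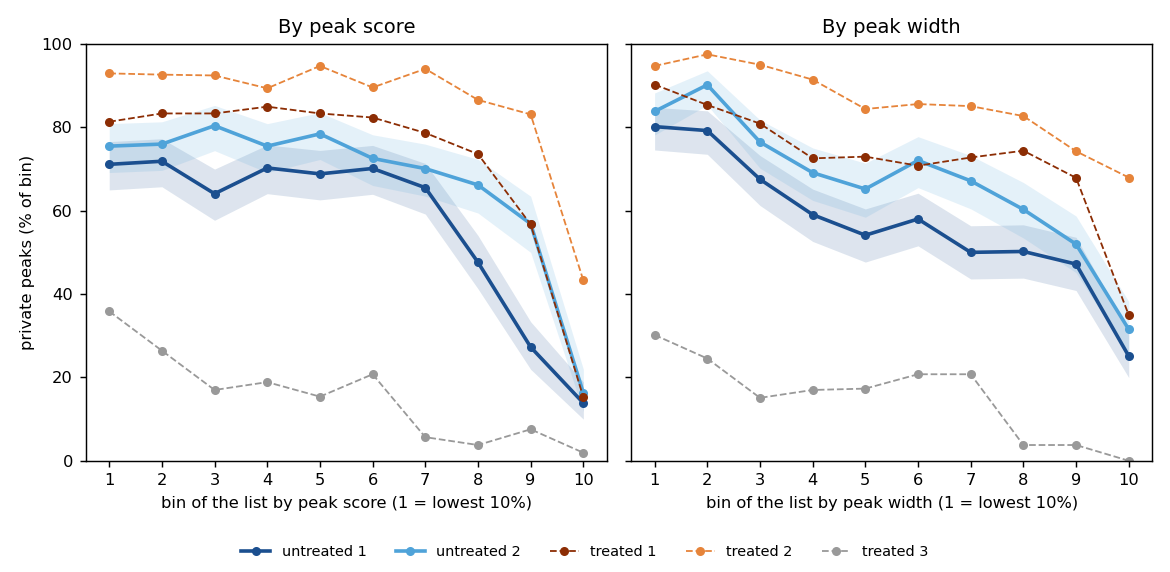
Share of peaks that were private (percent, vertical axis) in 10 equal bins of a list ordered by score (left) or by width (right), 1 line per library, solid for untreated and dashed for treated. Peaks of equal score or width were assigned to bins by genomic position. Width bins 1 and 2 of untreated library 2 both hold only peaks of 332 bp, so they differ by position and not by width. Shading is the 95% Wilson interval of the untreated libraries and covers counting error only. The share was 13.9% and 16.3% in the top score bin and 25.1% and 31.5% in the widest bin of untreated libraries 1 and 2.

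A few private peaks scored very highly. In untreated library 1 the highest was chr18:52566885-52567172, with a score of 75.3 that ranked 14 of 2313. It was followed by chr2:190164184-190164434 (54.3, rank 42), chrX:25385683-25385938 (51.5, rank 50), chr20:15793752-15794021 (41.9, rank 73) and chr5:106822469-106822723 (41.8, rank 74). The remaining 5 of its top 10 were chr1:65513770-65514043, chr9:37347728-37348003, chr2:35297582-35297818, chr21:46437800-46438070 and chr16:58652455-58652695, with scores from 39.9 down to 37.0. These 10 peaks were 237 to 288 bp wide (median 263 bp) and spread over 9 chromosomes. They stood far from any peak of another library, with a median gap of 249 kb and a range of 3.75 to 863 kb. The 87 other peaks of the library at or above the same score of 37.0 had a median width of 288 bp.

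The strongest private peaks of untreated library 2 ranked lower within their list. The highest was chr13:22271759-22272100, with a score of 15.5 that ranked 70 of 2039, followed by chr8:54076097-54076444 (14.2, rank 86), chr16:70642287-70642729 (12.9, rank 98), chr8:77384360-77384791 (12.5, rank 106) and chr2:90471743-90472117 (12.4, rank 108). The rest of its top 10 lay at chr1:27241675-27242035, chr18:39211785-39212378, chr21:44598109-44598508, chr8:143307760-143308241 and chr14:58137766-58138148, with scores from 11.6 to 11.4. Their median gap to another list was 46.9 kb. They were 342 to 594 bp wide (median 391.5 bp), against a median of 502 bp for the 119 other peaks of that library at or above the same score.

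Private peaks of both untreated libraries scored higher far from the peaks of other lists than close to them. In untreated library 1 the 383 private peaks more than 50 kb from any other list had a median score percentile of 54.3, while the 433 within 5 kb had 34.5. The corresponding values of untreated library 2 were 51.1 (417 peaks) and 41.2 (383 peaks). Treated library 1 had 47.7 and 39.6, treated library 3 had 34.7 and 30.5, and treated library 2 had 47.0 in both. The remote peaks were also the narrower ones, at 214 against 233 bp in untreated library 1 and 344 against 375 bp in untreated library 2.

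Private peaks were narrower than the others. Their median width was 220 bp in untreated library 1 and 356 bp in untreated library 2, where the other peaks had 259 and 431 bp. The narrowest width a list contains, 199 bp in the first and 332 bp in the second, was the width of 359 private peaks (27.2%) and 426 private peaks (31.3%), against 8.96% and 9.01% of the other peaks. Peaks over 500 bp were rare among the private ones of untreated library 1, at 5 (0.379%) against 84 other peaks (8.46%). In untreated library 2 they numbered 173 (12.7%) against 245 (36.2%). As a peak that is wider has more room to overlap another, width is not independent of the way the peaks were chosen.

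The narrower width was seen at each level of score in the untreated libraries, though scores within a level were not matched. With each list divided into 3 parts by score, private peaks of untreated library 1 had median widths of 229, 210 and 222 bp from the lowest to the highest part, and the other peaks 259, 250 and 261 bp. Those of untreated library 2 had 354, 353 and 367.5 bp against 421, 416 and 449 bp. In the highest part of treated library 3 the 7 private peaks were the wider ones, at 251 against 244 bp. Among private peaks of the untreated libraries score and width were nearly unrelated, with a Spearman correlation across peaks of -0.040 and 0.032 (1320 and 1362 peaks of 1 library each). The widest private peaks were chr18:28141-28792 in untreated library 1 (652 bp, score 3.08, rank 2308 of 2313) and chr1:227731157-227732177 in untreated library 2 (1021 bp, score 5.75, rank 824 of 2039). The next widest in the first library were chr10:66844113-66844733, chr15:20644288-20644818, chr8:145275101-145275618 and chr10:80930985-80931495, at 621 to 511 bp. In the second library they were chr14:19603518-19604441, chr21:45583587-45584480, chr21:44784447-44785334 and chr6:33740370-33741216, at 924 to 847 bp.

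The log2 ratio of private to other median width was -0.24 and -0.28 in the untreated libraries and -0.24, -0.37 and -0.15 in the treated ones. The group means were -0.26 ± 0.029 (SD, n = 2) and -0.25 ± 0.11 (SD, n = 3). Their difference of -0.0046 was smaller than either SD (exact two-sided permutation p = 1). Width bears on overlap, which chose the private peaks, and each library faced a different set of lists. The test therefore cannot decide whether the groups differ in width ratio. The untreated library differed from the treated one by 0.0026 in the first run identifier pair and by -0.13 in the second. This difference was 0.054 without treated library 3, 0.038 without treated library 1 and 0.013 without untreated library 2.

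Private peaks were spread unevenly over the chromosomes. Each chromosome was given a span, the distance between the outermost peaks of the 5 lists on it. Chromosomes 1, 8, 10, 14, 17, 19, 20 and 21 were over-represented relative to span in both untreated libraries, and 14 of the 24 chromosomes were so in neither. The remaining 2 differed between the libraries. On chromosome 15, with 2.75% of the span, lay 3.86% of the private peaks of untreated library 1 and 2.35% of those of untreated library 2. On chromosome 7, with 5.31% of the span, lay 2.80% and 5.43%. In the private peaks of the treated libraries, 9, 12 and 10 chromosomes were over-represented. On the 8 chromosomes high in both untreated libraries, the private part of all peaks follows in the order named. It was 56.8, 56.4, 57.4, 71.8, 75.3, 63.6, 78.3 and 54.1% in untreated library 1, against 57.1% of the list. In untreated library 2 it was 68.75, 63.8, 52.6, 62.9, 77.2, 72.1, 82.7 and 72.0%, against 66.8%. Where this part is near that of the list, the excess is one of the whole list.

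The densest chromosomes differed between the libraries. In untreated library 1 they were chromosome 17, with 113 private peaks or 13.9 per 10 Mb, chromosome 14, with 117 or 13.3, and chromosome 10, with 171 or 12.6. For untreated library 2 they were chromosome 21, with 59 private peaks or 15.2 per 10 Mb, chromosome 20, with 86 or 13.7, and chromosome 19, with 80 or 13.6, while chromosomes 14 and 10 held 7.51 and 7.61 per 10 Mb. The sparsest was chromosome 13 in untreated library 1, at 1.04 per 10 Mb, and the Y chromosome in untreated library 2, at 0.56. The Y chromosome held 7 and 3 private peaks, or 30.4% of 23 and 27.3% of 11 peaks there. PC3 is generally described as lacking a normal Y chromosome.

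**Figure D3:**
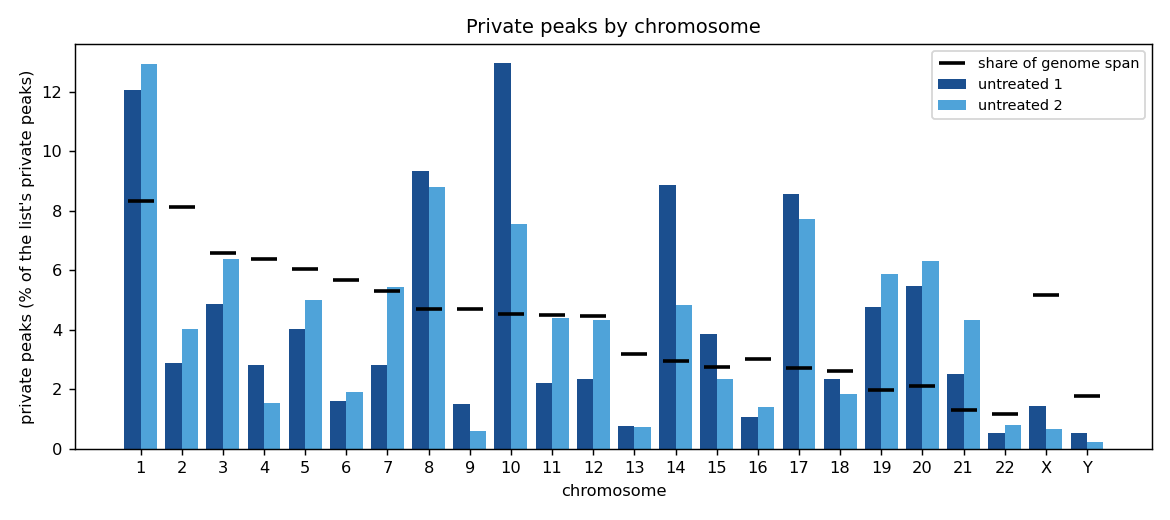
Private peaks on each chromosome as a percentage of all private peaks of untreated library 1 (dark bars) and untreated library 2 (light bars), with the chromosome's part of the genome span as a black dash. Chromosome 10 held 13.0% and 7.56%, chromosome 14 held 8.86% and 4.85%, and chromosome 17 held 8.56% and 7.71%.

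The part of a chromosome's peaks that was private also varied around the 57.1% and 66.8% of the whole lists. It was highest on chromosome 20 in untreated library 1, at 78.3% of 92 peaks (95% Wilson interval 68.8 to 85.5%), and on chromosome 3 in untreated library 2, at 87.9% of 99 peaks (80.0 to 92.9%). Chromosome 17 was high in both, at 75.3% of 150 and 77.2% of 136 peaks. Low values were found on chromosome 4, at 32.7% of 113 and 32.8% of 64 peaks, and on chromosome 9, at 33.3% of 60 and 23.5% of 34 peaks. The Wilson intervals cover counting error only, and peaks of 1 library are not replicates.

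Chromosome 10 held 13.0% and 7.56% of the private peaks in the untreated libraries and 16.4%, 5.73% and 12.3% in the treated ones. The means were 10.3% ± 3.81 (SD, n = 2) and 11.5% ± 5.39 (SD, n = 3), a difference of -1.24 points (exact two-sided permutation p = 1). It was 2.08 points without treated library 1, 1.57 points without untreated library 2 and -0.82 points without treated library 3. Chromosome 8 held 9.32% and 8.81% against 11.5%, 6.44% and 9.88%, a difference of -0.21 points (exact two-sided permutation p = 1). It was 1.68 points without treated library 1, 0.62 points without untreated library 2 and 0.13 points without treated library 3. In the first run identifier pair the untreated library differed by -3.46 points on chromosome 10 and -2.18 points on chromosome 8, and in the second by -4.78 and -1.07 points. Over all 24 chromosomes, the untreated and treated shares did not overlap in 1 (4.17%). This was chromosome 20, chosen here after its values were seen, with 5.45% and 6.31% in the untreated libraries and 4.19%, 5.41% and 2.47% in the treated ones (exact two-sided permutation p = 0.2, adjusted p = 1 over the 24 chromosomes by the Benjamini-Hochberg method). The lowest treated value, that of treated library 3, rested on 2 private peaks. The values of treated libraries 1 and 2 also lay below both untreated ones.

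By chromosome, the private peaks of untreated library 1 resembled those of treated library 1 more than those of untreated library 2. Over the 24 chromosomes, the share of private peaks relative to span had a Spearman correlation of 0.98 between untreated library 1 and treated library 1, 0.94 between untreated library 2 and treated library 2, and 0.90 between the untreated libraries. The values were 0.82 between untreated library 1 and treated library 2, 0.89 between untreated library 2 and treated library 1, and 0.63 and 0.61 for treated library 3 with untreated libraries 1 and 2. These are descriptions over chromosomes of single libraries, which share the mappable sequence of one genome. The narrowest peaks were 199 bp in untreated library 1 and 193 bp in treated library 1, which share a run identifier, and 332 bp in untreated library 2 and 291 bp in treated library 2, which do not. Treated library 3, with the lowest likenesses to the untreated libraries, had 200 bp, close to untreated library 1, and shares its run identifier with untreated library 2. The likenesses of treated library 3 rest on 81 private peaks. Whether narrowest width or run identifier bears on the likenesses was not tested.

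Within chromosomes, a few windows of 5 Mb held many private peaks. In untreated library 1, 10 windows making up 1.67% of the span held 309 private peaks (23.4%), and in untreated library 2 another choice of 10 held 260 (19.1%). Of these, 7 windows were in both choices. Set against span alone, this is not shown to be particular to private peaks. In the choice of untreated library 1, 47.5% to 89.7% of its peaks in a window were private, against 57.1% of its list. For untreated library 2 it was 35.3% to 96.2%, against 66.8%. The fullest in untreated library 1 were on chromosome 10 from 80 to 85 Mb, with 51 private among 95 peaks, and from 75 to 80 Mb, with 43 among 63. Untreated library 2 had 18 among 51 and 16 among 31 there. In untreated library 2 the fullest was on chromosome 8 from 140 to 145 Mb, with 52 private among 67 peaks (39 among 59 in untreated library 1), followed by the first 5 Mb of chromosome 1, with 41 among 60 (29 among 61). Each untreated library had 26 private among 29 peaks on chromosome 17 from 75 to 80 Mb, and from 70 to 75 Mb there were 22 among 25 and 19 among 22. The last of the 7 windows, on chromosome 1 from 225 to 230 Mb, held 23 among 37 and 21 among 30.

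The other windows of each choice differed in private peaks between the libraries. Except on chromosome 19, all peaks there differed in the same direction. Untreated library 1 had 26 private among 32 peaks on chromosome 14 from 65 to 70 Mb. It had 23 among 32 there from 70 to 75 Mb and 27 among 49 on chromosome 15 from 20 to 25 Mb. In the same windows untreated library 2 had 7 among 11, 14 among 23 and 12 among 31. Untreated library 2 had 25 private among 26 peaks on chromosome 21 from 45 to 50 Mb. It had 24 among 28 on chromosome 19 from 5 to 10 Mb and 18 among 22 on chromosome 20 from 60 to 65 Mb. Here untreated library 1 had 12 among 12, 14 among 30 and 11 among 13. All 12 peaks of untreated library 1 and 25 of the 26 of untreated library 2 on that stretch of chromosome 21 were private.

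Although no private peak of one untreated library overlaps a peak of the other, both sets often fell in the same windows. Of 602 windows with a peak of any list, 375 held a private peak of untreated library 1 and 348 one of untreated library 2. Both were found in 256 windows, or 68.3% and 73.6% of the windows of each. Each set alone covered most of the 602 windows, so many common windows were bound to occur. The counts per window had a Spearman correlation of 0.54 and a Pearson correlation of 0.78, given as a description over 602 windows that share the genome's mappable sequence. Against the private peaks of treated libraries 1 and 2 the Spearman correlations were 0.61 and 0.54 for untreated library 1 and 0.65 and 0.70 for untreated library 2.

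**Figure D4:**
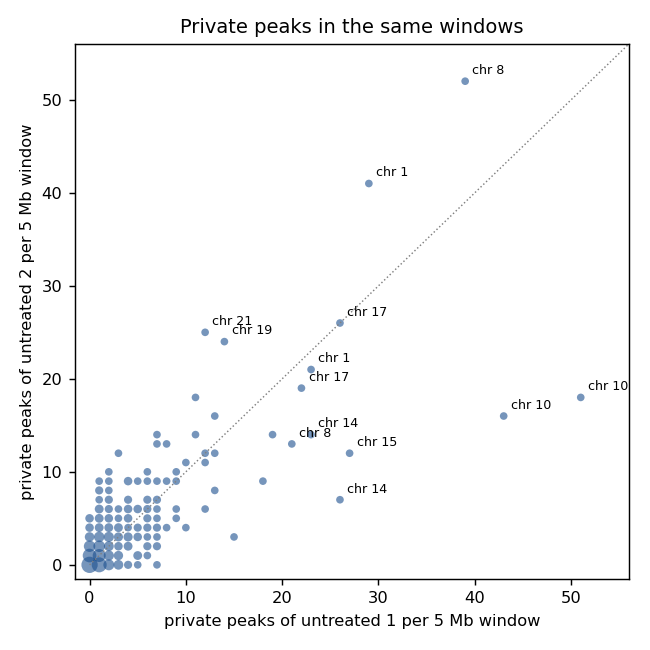
Private peaks per 5 Mb window in untreated library 1 (horizontal axis, count) and untreated library 2 (vertical axis, count); each point is a pair of counts, larger where more windows share it, and the dotted line marks equal counts. Windows with 20 or more in either library are labelled with their chromosome. The chromosome 8 window at 39 and 52 and the chromosome 17 window at 26 and 26 were full in both libraries, while the chromosome 10 windows at 51 and 18 and at 43 and 16 were fuller in untreated library 1.

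To compare the groups on this measure, the 20 windows with most peaks of the other 4 lists were taken for each library in turn. They held 33.0% and 27.6% of the private peaks of the untreated libraries and 31.9%, 16.5% and 22.2% of those of the treated ones. The means were 30.3% ± 3.84 (SD, n = 2) and 23.5% ± 7.75 (SD, n = 3). The other lists that ranked the windows also chose the private peaks, and each library faced a different set of lists. The exact two-sided permutation test (p = 0.4) therefore cannot decide whether the groups differ here. The difference was 6.77 points. It was 1.60 points without treated library 2 and 5.58 points without treated library 3. Within the run identifier pairs it was 1.16 and 5.38 points. With the 528 top-scoring peaks of every list it was -11.5 points, the opposite direction. Chromosome ends, taken as the 5 Mb inside the first and the last peak of each chromosome, make up 8.01% of the span and held 20.2% of the private peaks of untreated library 1 (95% Wilson interval 18.1 to 22.5%) and 25.7% of those of untreated library 2 (23.4 to 28.1%). The other peaks of the same lists had similar values, 21.3% and 24.4%.

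Private peaks also came in runs, which are ordered here by their number of private peaks and not by length. Another private peak of the same library lay within 50 kb for 29.4% of them in untreated library 1 and 24.96% in untreated library 2. The treated libraries, with 3558, 8638 and 81 private peaks, had 54.3%, 56.1% and 4.94%. The means were 27.2% ± 3.13 (SD, n = 2) and 38.5% ± 29.1 (SD, n = 3), a difference of -11.3 points (exact two-sided permutation p = 0.6). The share was lowest in the list with 81 private peaks and highest in that with 8638, numbers set by the overlap rule. As the test takes no account of these numbers, it cannot decide whether the groups differ here. The difference was -28.2 points without treated library 3, -3.60 points without treated library 2 and -2.52 points without treated library 1. The run identifier pairs gave -24.9 and 20.0 points. Over the 6 measures compared between the groups, the adjusted p was 1 for each by the Benjamini-Hochberg method.

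The largest run lay on chromosome 10 in untreated library 1, at chr10:80848391-81202802. Over 354 kb it held 32 private peaks among 51, while untreated library 2 had 8 private among 24, treated library 1 had 59 among 105, treated library 2 had 32 among 66 and treated library 3 had 0 among 5. All 5 libraries thus had peaks in this stretch, many of them at positions that no other library shared. The next of untreated library 1 were chr8:145546437-145725424, with 12 private among 13 peaks, chr14:90897917-91052640, with 11 among 18, chr8:145990642-146076366, with 6 among 6, and chr10:75527748-75679531, with 6 among 6.

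The runs of untreated library 2 with most private peaks were chr8:143220346-143428643, with 9 private among 10 peaks, and chr8:145530813-145761094, with 9 among 11. The second of these contains the chromosome 8 run of 12 private peaks of untreated library 1 named before. Over those 230 kb untreated library 1 had 12 private among 13 peaks, treated library 1 had 7 among 12, treated library 2 had 20 among 25 and treated library 3 had 1 among 1. Runs that met few peaks of the other untreated library also occurred. At chr1:226753179-226853025 untreated library 2 had 5 private among 5 peaks and untreated library 1 had none, while treated libraries 1 and 2 had 3 and 2 peaks. At chr8:142193912-142230622 it again had 5 among 5, untreated library 1 and treated library 1 had none and treated library 2 had 2. At chr10:80808909-80910982, the remaining run, untreated library 2 had 6 private among 8 peaks and untreated library 1 had 8 among 13. Of the private peaks, 932 in untreated library 1 (70.6%) and 1022 in untreated library 2 (75.04%) stood outside any run.

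With an overlap of 50% of the shorter peak required, they held 1371 and 1416 peaks, and with peaks within 500 bp also counted as shared, 1229 and 1280. Restricting every list to its 528 top-scoring peaks left 183 private peaks in untreated library 1 (34.7% of 528) and 297 in untreated library 2 (56.2%). At that equal length the private peaks again had the lower median score, with gaps of -21.8 and -42.4 percentile points, and the smaller median width, with log2 ratios of -0.17 and -0.23.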

How the data were processed

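p300 peaks were called with MACS2 on hg19, per the submitters' processing notes, and the authors deposited 1 peak list per p300 library with a score per peak in column 5. Not given in the sources used here: the aligner, MACS2 version, threshold, score scale and input. The 4 input libraries were not analysed here, and depth is unknown. The run identifiers come from the peak names, and the labels name no batches.

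A peak was private if it overlapped no peak of the other 4 lists by 1 bp. Gaps are bp between peak edges, and coordinates count from 1. Group differences are untreated minus treated means of 1 value per list, with an exact two-sided permutation test. For each untreated list the text names the 10 highest-scoring and 5 widest private peaks, the 3 nearest to and 3 farthest from other lists, the 10 fullest windows of 5 Mb and the 5 runs with most private peaks (spaced at most 50 kb apart). The 3 smallest overlaps of other peaks are given by size. The members, measures and rules were chosen with earlier results of these data known. No hg19 sequence or annotation was used, so no sequence or gene is given. The code was tested on simulated data. Python 3.11.15, numpy 2.4.6, pandas 2.3.3, scipy 1.17.1 and matplotlib 3.10.9 were used.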

Additional observations from a re-analysis of the deposited data

Results flagged for a closer look

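In the pairs of libraries that share a run identifier, 2 measures moved in opposite directions between untreated and treated libraries. The share of private peaks with another private peak of the same library within 50 kb was lower in the untreated library by 24.9 points (-24.9) in the pair of untreated 1 and treated 1, and higher by 20.0 points in the pair of untreated 2 and treated 3. The treated libraries of these pairs held 3558 and 81 private peaks. The log2 ratio of private to other median width differed by 0.00257 in the first pair and by -0.129 in the second. Each pair holds 1 library per group, so neither difference was tested.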

How the results depend on the processing

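Among 92 alternative values, 14 group differences changed sign and 3 counts of private peaks moved by over 1.5-fold. The other 75 include group differences that kept their sign but moved by over 1.5-fold, so these differences were not stable in size. No exact permutation p was below 0.2, the smallest possible with 5 lists, so none of the group differences had a call to lose. Scores above the pooled median of 5.9 left 452 private peaks in untreated library 2, and turned the differences on chromosomes 10 and 8 to 1.48 and 1.06 points. Taking the 528 top-scoring peaks of every list left 183 and 297 private peaks, a chromosome 8 difference of 0.75 and a dense window difference of -11.5 points; fewer peaks enter both settings. Leaving out 1 library gave 1327 to 1496 and 1366 to 1509 private peaks, score gap differences of 1.504 to 8.94 points, width ratio differences of -0.066 to 0.054, chromosome 10 differences of -4.00 to 2.08, chromosome 8 differences of -0.27 to 1.68, dense window differences of 1.60 to 10.2 and neighbour differences of -28.2 to -2.52 points. For the replicate block, libraries with the same number gave a width ratio difference of 0.047 and a chromosome 8 difference of 0.098 points, both of changed sign. The labels do not say that equal numbers mark a shared culture or day, so they were not taken as pairs. The pairing by run identifier, an alternative added after seeing the data, changed no direction on average over its 2 pairs. In single pairs the neighbour share (20.0 points) and the width ratio (0.00257) did change direction. Where a sign changed the cause was not tested. Depth is unknown, so a missing peak cannot be read as missing binding.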

Other observations

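In 5 of the 602 windows of 5 Mb, one untreated library had 5 or more private peaks and the other none. Untreated library 1 had 7 private among 9 peaks on chromosome 1 from 155 to 160 Mb (77.8%). On chromosome 21 from 5 to 10 Mb it had 5 among 16 (31.25%), against 57.1% of its list. In these windows untreated library 2 had 2 and 10 peaks, all of them shared with another list. Untreated library 2 had 5 private among 5 peaks on chromosome 5 from 100 to 105 Mb. It had 5 among 6 on chromosome 7 from 0 to 5 Mb and 5 among 7 on chromosome 12 from 110 to 115 Mb. Here untreated library 1 had 0, 3 and 1 peaks. Treated library 2 had 105 private peaks among 108 in the chromosome 7 window and treated library 1 had 3 among 6. For chromosomes 1, 21, 5 and 12, treated library 2 had 28 among 31, 10 among 27, 11 among 12 and 46 among 49. Treated library 1 had 15 among 18, 17 among 35, 7 among 7 and 7 among 8 in the same windows.

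Many private peaks, and some of the others, carried exactly the same deposited score. The most frequent value in untreated library 1, 6.47, was shared by 102 peaks (4.41% of the list), of which 87 were private. That in untreated library 2, 3.35, was shared by 95 peaks (4.66%), of which 77 were private. The private share was 57.1% and 66.8% in the whole lists. In the score bins that hold these values it was 64.1% and 70.3% in untreated library 1 and 75.5% and 76.0% in untreated library 2.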
